A study of Mus musculus with 10 samples.

Results

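The 7 metabotropic glutamate receptor genes described here were Grm2, Grm3, Grm4, Grm5, Grm6, Grm7 and Grm8. They were found by gene symbol in the platform annotation, and all 7 were among the 19938 genes measured. Each had 1 transcript cluster, the set of probes that the array summarises as 1 value. Other receptors of the family were not analysed here. The samples were total RNA of both hippocampi of a mouse, pooled, from males at 16 weeks of age. Of these, 5 were Tg(Dyrk1a) mice with a bacterial artificial chromosome with an additional copy of Dyrk1a, a kinase gene whose human homologue lies on the chromosome that is trisomic in Down syndrome. They were compared with 5 wild type littermates without the transgene, on the C57BL/6N background that the labels give for both groups. The study's own text gives C57BL/6J for this line instead. The sources name no cell type to which the transgene is limited. Each mouse gave 1 Affymetrix whole-transcript array, and values are log2 after robust multi-array averaging (RMA).

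Metabotropic glutamate receptors are G protein-coupled receptors for the main excitatory transmitter of the brain, and they set the strength of synapses more slowly than the glutamate-gated channels do. Group I receptors, of which Grm5 was measured, couple to Gq and phospholipase C and lie mostly around the postsynaptic density of hippocampal neurons. Group II (Grm2 and Grm3) and group III (Grm4, Grm6, Grm7 and Grm8) receptors couple to Gi/o, lower cyclic AMP and, at nerve terminals, reduce the release of glutamate or GABA.

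The 250 bases in front of the annotated start sites are shown for Grm3 and Grm8, since these receptors had the highest correlation of any pair across the mice once the genotype means were taken out. They are from RefSeq on GRCm38.p6, at chr5:9725353-9725602 for Grm3 and chr6:28135147-28135396 for the first of the 3 start sites of Grm8. Both genes are on the minus strand and both sequences are written in the direction of transcription. Capitals mark the GC box (GGGCGG) and the CCAAT box (CCAAT) on either strand.
Grm3: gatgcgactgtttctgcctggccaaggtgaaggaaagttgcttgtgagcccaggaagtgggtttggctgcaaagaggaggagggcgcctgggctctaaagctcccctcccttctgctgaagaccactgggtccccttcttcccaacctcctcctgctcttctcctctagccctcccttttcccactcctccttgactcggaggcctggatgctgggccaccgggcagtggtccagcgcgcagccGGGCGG
Grm8: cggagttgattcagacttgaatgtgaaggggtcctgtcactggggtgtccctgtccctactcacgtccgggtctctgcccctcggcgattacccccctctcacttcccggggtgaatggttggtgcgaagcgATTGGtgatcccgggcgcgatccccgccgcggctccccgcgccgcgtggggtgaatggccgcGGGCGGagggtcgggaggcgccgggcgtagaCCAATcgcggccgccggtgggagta
The Grm3 window had 1 GC box, which began 6 bases before the start, and no CCAAT box. The Grm8 window had 1 GC box that began 56 bases before the start and CCAAT boxes that began 118 and 25 bases before it. Among 32851 start sites of all genes, 32.7% of such windows held a GC box and 33.8% held a CCAAT box. GC content was 62.4% for Grm3 and 68.4% for Grm8, against a median of 52.4% over all windows. A cAMP response element (TGACGTCA, 1.55% of windows) and a TATA box (TATAAA, 12.4%) were looked for on both strands too. Neither was found at any of the 8 start sites of the 5 receptor genes that the sequence table held, which were Grm2, Grm3, Grm6, Grm7 and Grm8. A match is a match of letters only.

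The arrays were alike in distribution, with medians of 6.57 to 6.66 and correlations of 0.996 to 0.999 between any 2 arrays. Dyrk1a, the gene in excess, averaged 11.65 ± 0.02 in Tg(Dyrk1a) and 11.18 ± 0.06 in wild type hippocampus (SD, n = 5 each). It rose by 0.47 ± 0.03 on the log2 scale (limma adjusted p = 0.000138), with no overlap between the groups. Dyrk1a has 2 transcript clusters, and these are values of the one with the higher mean. The other averaged 8.94 ± 0.09 in Tg(Dyrk1a) and 8.78 ± 0.07 in wild type, a log2 fold change of 0.16 ± 0.05 (limma adjusted p = 0.947). Its groups did not overlap either. Prox1, which specifies dentate granule cells, ran between 9.86 and 10.23 in Tg(Dyrk1a) and between 9.76 and 10.12 in wild type. A score is the mean, over a marker list, of each gene's log2 value minus its mean over the 10 arrays. The choroid plexus score was above 0.5 in 3 arrays, Tg(Dyrk1a) replicates 2 and 4 and wild type replicate 5, and that wild type array also had the highest thalamus and habenula score (0.476). All 10 meninges and fibroblast markers had a higher mean in Tg(Dyrk1a), and their score ran between -0.0764 and 0.243 in Tg(Dyrk1a) and between -0.198 and 0.0456 in wild type. The endothelial and mural cell score did not overlap, at 0.0332 to 0.107 in Tg(Dyrk1a) and -0.174 to 0.00998 in wild type. The scores were correlated with the receptor values, as given below, and 3 scores (thalamus, meninges and choroid plexus) were also fitted as covariates. Beyond that, the part of these markers in the receptor values was not tested. In whole tissue, fewer cells of a type and less RNA per cell cannot be told apart.

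None of the 7 receptor genes passed the limma test at an adjusted p of 0.05, a threshold that 0.00854% of the 23410 annotated transcript clusters passed. At an unadjusted p of 0.05, 1 receptor gene passed, Grm4, which was lower in Tg(Dyrk1a), against 4.93% of all transcript clusters in either direction and 1.94% in that one. By the rank rule that the study used, fold change rank ordering (FCROS), 1 receptor gene was lower and 0 were higher, against 2.11% and 2.72% of transcript clusters, 4.83% in all. FCROS ranks the fold changes in each of the 25 pairs of a Tg(Dyrk1a) and a wild type array and gives no error rate over mice. The groups overlapped for all 7 receptor genes, and for all but 0.807% of transcript clusters. Of the receptor genes, 4 had a higher mean in Tg(Dyrk1a) and 3 a lower one, while 49.1% of transcript clusters were lower. The median absolute log2 fold change was 0.0569 over the receptor genes and 0.0326 over all genes.

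**Figure D1:**
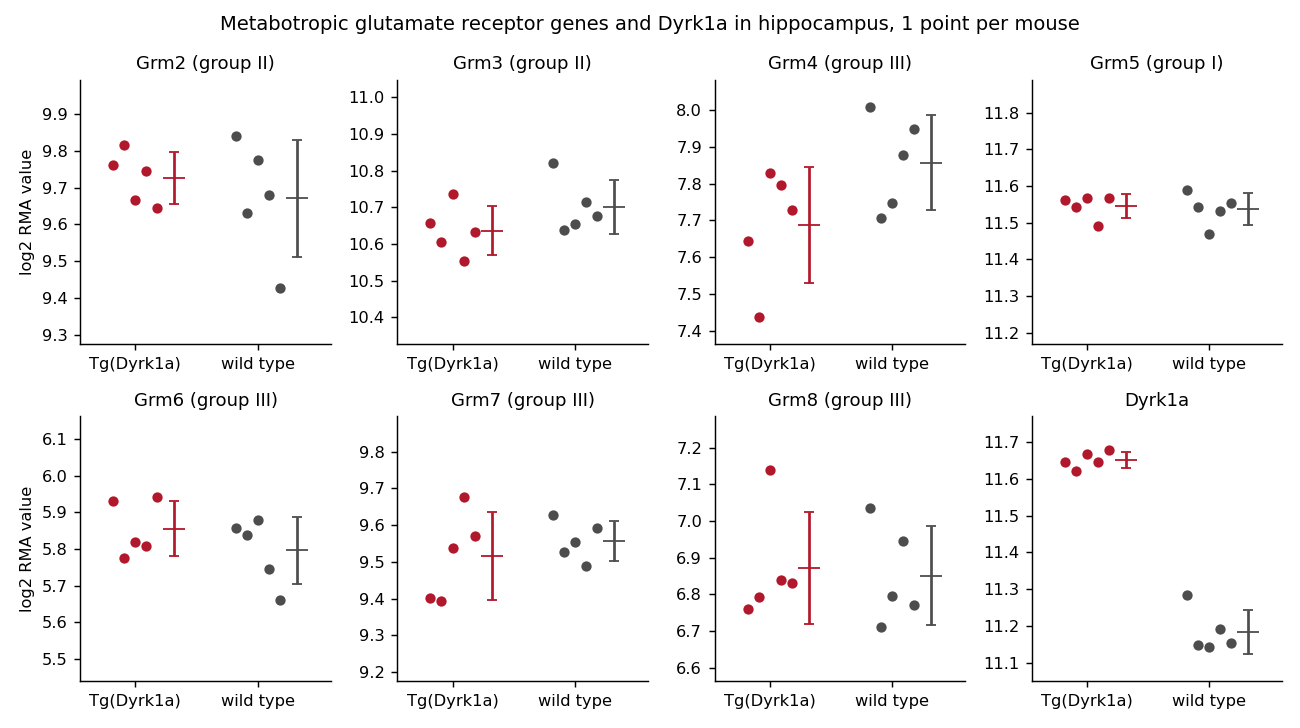
Log2 RMA values of the 7 receptor genes and of Dyrk1a, 1 point per mouse, with Tg(Dyrk1a) in red on the left and wild type in grey on the right; bars are the mean and SD of 5 mice, and every panel spans the same number of log2 units. The receptor genes overlap between the genotypes, Dyrk1a does not, and the Grm4 points of Tg(Dyrk1a) lie between 7.44 and 7.83.

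Grm5, the group I receptor whose activation induces long-term depression at hippocampal synapses, varied least of the 7. It read 11.56, 11.54, 11.57, 11.49 and 11.57 in Tg(Dyrk1a), against 11.59, 11.54, 11.47, 11.53 and 11.55 in wild type. The Tg(Dyrk1a) values lay inside the wild type range, and the highest and lowest single arrays differed by 1.09-fold. Grm5 lies at chr7:87583981-88135063. The means were 11.55 ± 0.03 in Tg(Dyrk1a) and 11.54 ± 0.04 in wild type (SD, n = 5 each), a log2 fold change of 0.01 ± 0.03 (SE; 95% interval -0.06 to 0.08, limma adjusted p = 0.985). Its SD within genotypes was 0.0381, and 8.08% of genes had a smaller one. As a ratio of Tg(Dyrk1a) to wild type, the 95% interval was 0.959 to 1.06.

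Grm2, a group II receptor, acts as an autoreceptor on mossy fibre terminals of dentate granule cells. It had values of 9.76, 9.82, 9.67, 9.75 and 9.65 in Tg(Dyrk1a) and of 9.84, 9.63, 9.78, 9.68 and 9.43 in wild type. Wild type replicate 5, the array with the high thalamus and choroid plexus scores, was the lowest of all, and the other 4 wild type arrays covered the Tg(Dyrk1a) range. The means were 9.73 ± 0.07 in Tg(Dyrk1a) and 9.67 ± 0.16 in wild type (chr9:106644534-106656109). The log2 fold change was 0.06 ± 0.07 (limma adjusted p = 0.969) and -0.004 without that wild type array.

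Grm3, the other group II receptor, is made by astrocytes as well as neurons and also responds to the peptide N-acetylaspartylglutamate (NAAG). Its values were 10.66, 10.60, 10.74, 10.55 and 10.63 in Tg(Dyrk1a), against 10.82, 10.64, 10.65, 10.72 and 10.68 in wild type. Tg(Dyrk1a) replicate 3 lay above 4 of the wild type mice and the other 4 Tg(Dyrk1a) mice lay below the wild type mean, so the groups overlapped. Grm3 (chr5:9485236-9725352) averaged 10.64 ± 0.07 in Tg(Dyrk1a) and 10.70 ± 0.07 in wild type. The log2 fold change was -0.06 ± 0.04 (95% interval -0.16 to 0.03, limma adjusted p = 0.948). The 10 astrocyte markers gave scores of -0.0318 to 0.0302 in Tg(Dyrk1a) and of -0.0421 to 0.0246 in wild type.

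Grm4, a group III receptor of nerve terminals that is best known from the parallel fibres of the cerebellum, had the largest difference of the 7. It read 7.64, 7.44, 7.83, 7.80 and 7.73 in Tg(Dyrk1a), against 8.01, 7.71, 7.75, 7.88 and 7.95 in wild type. All 5 Tg(Dyrk1a) mice were below the wild type mean and the lowest array was Tg(Dyrk1a) replicate 2, while wild type replicates 2 and 3 lay within the Tg(Dyrk1a) range. Grm4 is at chr17:27422387-27513826. Its means were 7.69 ± 0.16 in Tg(Dyrk1a) and 7.86 ± 0.13 in wild type (SD, n = 5 each), which is a log2 fold change of -0.17 ± 0.08 (SE; 95% interval -0.34 to -0.003). That is a ratio of 0.889 (95% interval 0.791 to 0.998). The unadjusted limma p was 0.0466 and the adjusted p 0.947, at rank 1083 by p among the 23410 transcript clusters. The two-sided exact permutation test of the means over all assignments of the 10 arrays gave p = 0.103. Grm4 also varied among mice of 1 genotype more than 95.4% of genes did, with an SD of 0.144. Without Tg(Dyrk1a) replicate 2 the log2 fold change was -0.11, and without the 3 choroid-rich arrays named above it was -0.10, where FCROS no longer called Grm4. With the thalamus, meninges and choroid plexus scores fitted it was -0.14.

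Grm6 acts through Go on a TRPM channel of retinal ON bipolar cells and is known for the light response of the retina. Its values were 5.93, 5.78, 5.82, 5.81 and 5.94 in Tg(Dyrk1a), against 5.86, 5.84, 5.88, 5.75 and 5.66 in wild type. Tg(Dyrk1a) replicates 1 and 5 were the highest of all and wild type replicates 4 and 5 the lowest, and the other 6 arrays were mixed. Grm6 (chr11:50850369-50866208) averaged 5.86 ± 0.08 in Tg(Dyrk1a) and 5.80 ± 0.09 in wild type, and its log2 fold change was 0.06 ± 0.05 (limma adjusted p = 0.952). Its transcript cluster was among the dimmest 30% of those annotated. The value table gives no background level per probe, so that such a value cannot be told apart from background.

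Grm7 is a low-affinity receptor of the active zone of nerve terminals, where the postsynaptic protein Elfn1 recruits it. It had values of 9.40, 9.39, 9.54, 9.68 and 9.57 in Tg(Dyrk1a) and of 9.63, 9.53, 9.55, 9.49 and 9.59 in wild type. Tg(Dyrk1a) replicates 1 and 2 were lowest and Tg(Dyrk1a) replicate 4 highest, so the wild type values lay inside the Tg(Dyrk1a) range. Its means (chr6:110645349-111567230) were 9.52 ± 0.12 in Tg(Dyrk1a) and 9.56 ± 0.05 in wild type, with a log2 fold change of -0.04 ± 0.05 (limma adjusted p = 0.969).

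Grm8, a receptor of high glutamate affinity on perforant path terminals, had values of 6.76, 6.79, 7.14, 6.84 and 6.83 in Tg(Dyrk1a), against 7.04, 6.71, 6.79, 6.95 and 6.77 in wild type. Tg(Dyrk1a) replicate 3 was the highest array and stood apart from the other 4 of its group, and wild type replicates 1 and 4 came next. Grm8 (chr6:27275121-28135146) averaged 6.87 ± 0.15 in Tg(Dyrk1a) and 6.85 ± 0.13 in wild type, a log2 fold change of 0.02 ± 0.08 (95% interval -0.15 to 0.19, limma adjusted p = 0.985). Without Tg(Dyrk1a) replicate 3 it was -0.05. Its SD within genotypes of 0.144 was larger than that of 95.3% of genes.

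**Figure D2:**
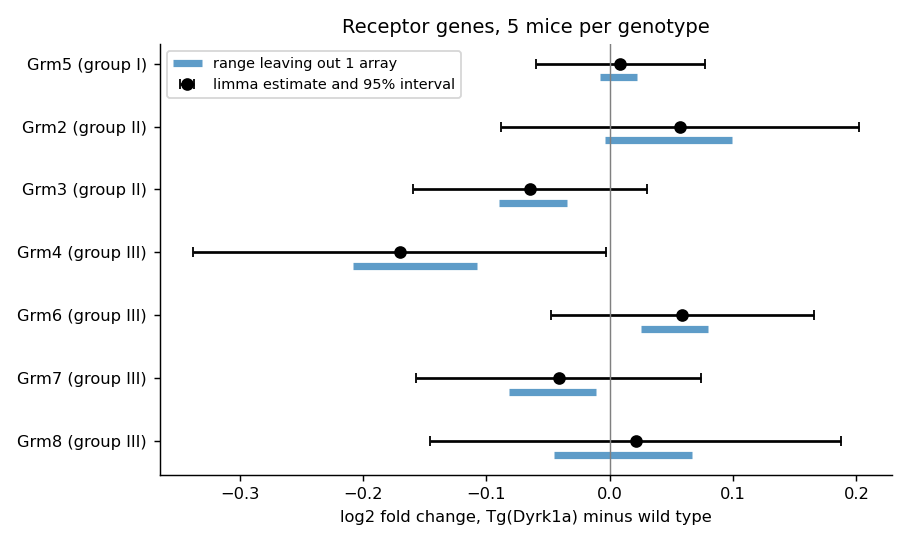
Difference in log2 value for each receptor gene, Tg(Dyrk1a) less wild type, from 5 mice per genotype; black points and bars are the limma estimate and its 95% interval, and blue bars give the range when 1 array at a time is left out. The Grm4 interval ends at -0.003, and the other 6 intervals include 0.

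The receptor genes also differed in how they moved from mouse to mouse. Within genotypes, 6 of the 7 varied more than the median gene, whose SD was 0.0702, Grm5 being the exception. Of these 6, Grm3 was about at the median, with an SD of 0.0705, larger than that of 50.4% of genes. Across the 10 arrays, 21 pairs of receptor genes were compared and none passed after adjustment. Grm4 and Grm7, both group III, had the highest correlation (Pearson r = 0.707, permutation p = 0.0219, adjusted p = 0.279; Spearman rho = 0.648, permutation p = 0.0491, adjusted p = 0.464). It was 0.428 without the 2 arrays farthest from the median of Grm4, so it rested in part on them. Grm3 and Grm8 followed (r = 0.694, permutation p = 0.0265, adjusted p = 0.279; rho = 0.442, permutation p = 0.203, adjusted p = 0.854). Taken within genotypes, Grm3 and Grm8 had r = 0.824, with 0.72 in Tg(Dyrk1a) and 0.941 in wild type, and over all arrays r was 0.80 without the 2 arrays farthest from the median of Grm3. Both were high in Tg(Dyrk1a) replicate 3 and in wild type replicates 1 and 4.

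Set against 10 marker scores, in 70 pairs, the receptor genes gave no correlation that passed after adjustment. The strongest was that of Grm4 with the dentate granule cell score, which was negative (r = -0.854, permutation p = 0.00283, adjusted p = 0.198; rho = -0.77, permutation p = 0.0128, adjusted p = 0.34). Within genotypes r was -0.803, with -0.877 in Tg(Dyrk1a) and -0.686 in wild type, and it was -0.604 without the 2 arrays with the most extreme scores. Of the 9 dentate granule cell markers measured, 8 had a higher mean in Tg(Dyrk1a), and their score ran between -0.108 and 0.268 in Tg(Dyrk1a) and between -0.203 and 0.0386 in wild type. Prox1 averaged 10.03 ± 0.13 in Tg(Dyrk1a) and 9.91 ± 0.14 in wild type (limma adjusted p = 0.947). The part of these markers in the Grm4 difference was not tested. Grm4 also had r = -0.779 with the score of CA1 to CA3 pyramidal cells (permutation p = 0.00726, adjusted p = 0.226; rho = -0.697, permutation p = 0.0298, adjusted p = 0.34), and -0.485 without the 2 arrays with the most extreme scores. Within Tg(Dyrk1a) it was -0.971 and within wild type -0.401. Grm7 had r = -0.745 with the same score (permutation p = 0.0137, adjusted p = 0.226; rho = -0.721, permutation p = 0.023, adjusted p = 0.34), and -0.65 without those arrays. The pyramidal cell score ran between -0.0504 and 0.12 in Tg(Dyrk1a) and between -0.0749 and 0.0572 in wild type. Grm6 had r = -0.73 with the choroid plexus score (permutation p = 0.0162, adjusted p = 0.226; rho = -0.697, permutation p = 0.0319, adjusted p = 0.34), and -0.489 without the 2 arrays with the most extreme scores. Grm5 had r = 0.756 with the astrocyte score (permutation p = 0.0128, adjusted p = 0.226; rho = 0.527, permutation p = 0.124, adjusted p = 0.545), and 0.019 without 2 such arrays.

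**Figure D3:**
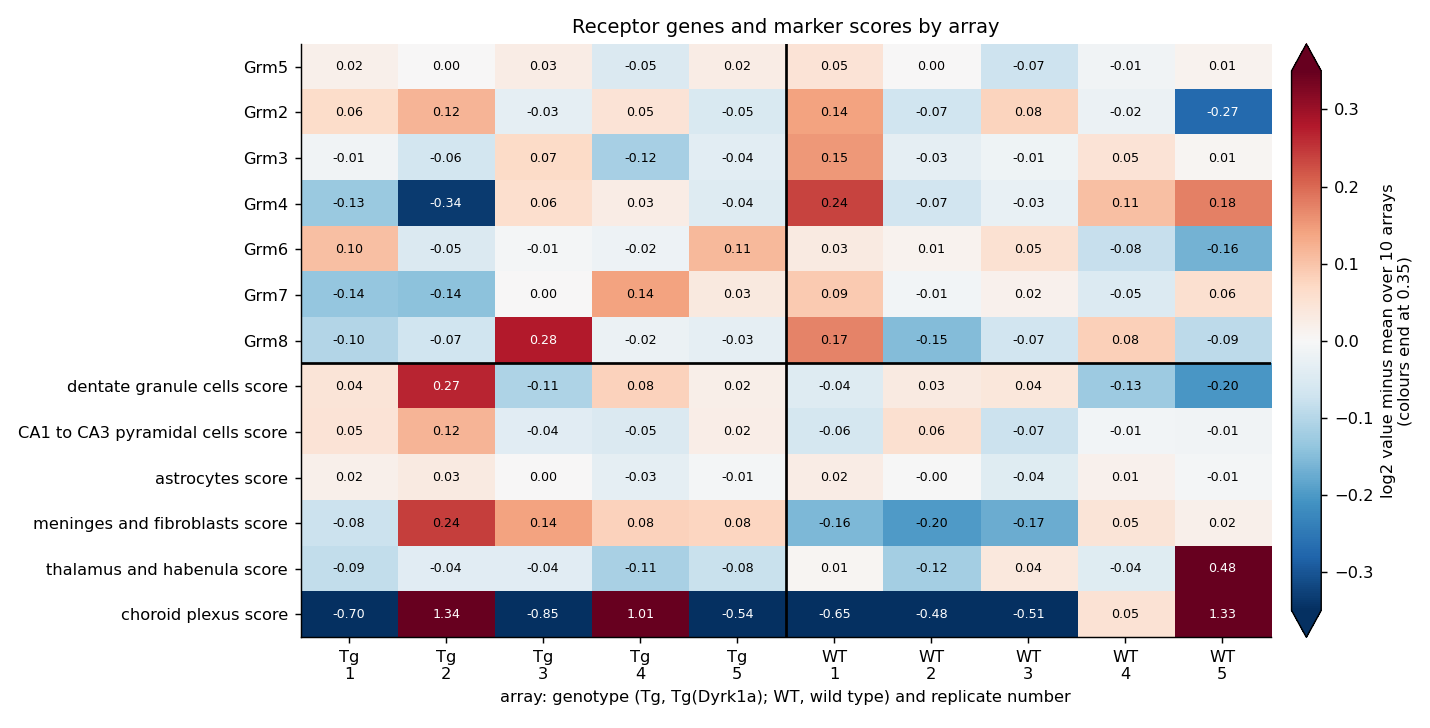
Log2 value minus its mean over the 10 arrays for the 7 receptor genes (upper rows), and the scores of 6 marker lists (lower rows), in the 5 Tg(Dyrk1a) arrays on the left and the 5 wild type arrays on the right; colours end at 0.35 and the numbers give the values. Grm4 is lowest in Tg(Dyrk1a) replicate 2, which has the highest dentate granule cell score, 0.268.

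**Figure D4:**
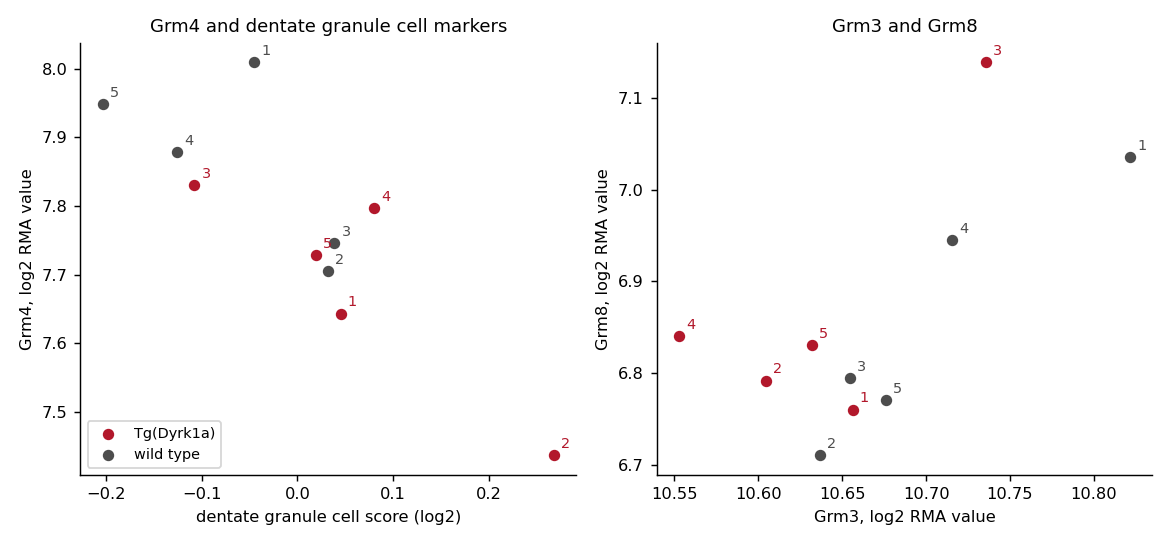
Grm4 against the dentate granule cell score (left) and Grm8 against Grm3 (right), all on log2 scales, with 1 point per array, Tg(Dyrk1a) in red and wild type in grey, and the replicate number beside each point. Grm4 is lower where the score is higher (r = -0.854), and Grm8 is highest in Tg(Dyrk1a) replicate 3.

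Among 9969 genes with a mean above the median gene, those most alike to each receptor gene were found by Pearson r within genotypes over the 10 arrays, as a description. A search over many genes and few arrays selects for a high r, and no chance level was computed. The genes named are therefore no evidence of shared regulation. For Grm4 they were Adgrg1 (r = 0.982), Faim2 (0.977) and Rims3 (0.972), the gene of a protein of the presynaptic active zone. Rims3 and Adgrg1 had log2 fold changes of -0.18 and -0.12, and Faim2 of -0.001, none past the limma test. For Grm3 they were Asb13 (0.959), Nxt2 (0.958) and Akap12 (0.948), a scaffold of protein kinase A. Grm5 was most like Gnaz (0.966), a Gi-class alpha subunit, Golga2 (0.966) and Xpo7 (0.961). Grm2 was most like Mars2 (0.956), Zfp324 (0.913) and Fgf5 (0.911), and Grm6 was most like Tmem213 (0.948), Vmac (0.910) and Svip (0.910). For Grm7 the genes were Scarna13 (0.983), Tbc1d17 (0.965) and Lin52 (0.944), and for Grm8 they were Satb1 (0.937), a chromatin organiser of several neuron types, Pamr1 (0.932) and Asap1 (0.924).

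The genes that work with the receptors were taken as 7 lists of 135 genes, of which 123 were measured, and 0 of them passed the limma test. Unadjusted, 6 were higher and 2 lower at a p of 0.05, against 2.99% and 1.94% of transcript clusters. FCROS called 6 higher and 3 lower, against 2.72% and 2.11%. The groups did not overlap for 3 of the 123, against 0.807% of transcript clusters. The lists were chosen with earlier results of these data known, so these counts are no test of an excess.

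Scaffolds and partners of the receptors numbered 19 and had a median log2 fold change of 0.0170, against 0.00199 over all genes, with 11 higher and 8 lower. Homer1, which ties group I receptors to the postsynaptic density, averaged 9.82 ± 0.02 in Tg(Dyrk1a) and 9.86 ± 0.07 in wild type (log2 fold change -0.04 ± 0.04). Elfn1, the partner of Grm7, had a log2 fold change of 0.05 ± 0.05. The smallest p-values of this list were those of Grasp, whose protein is also called tamalin (0.10 ± 0.06), Sdcbp (0.07 ± 0.04) and Pick1 (0.06 ± 0.04), the last of which binds Grm7, and their limma adjusted p-values were all 0.947.

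Of the 19 genes measured for Gq and phospholipase C signalling, 15 had a higher mean in Tg(Dyrk1a) and 4 a lower one, with a median log2 fold change of 0.0325. That median was 0.0139 after quantile normalisation, 0.0165 without wild type replicate 3 and 0.0186 without Tg(Dyrk1a) replicate 5. Trpc4, a cation channel opened downstream of phospholipase C, read 9.69, 9.65, 9.63, 9.74 and 9.66 in Tg(Dyrk1a), against 9.61, 9.61, 9.51, 9.45 and 9.58 in wild type. All Tg(Dyrk1a) mice were above all wild type mice. The log2 fold change was 0.12 ± 0.04 (unadjusted limma p = 0.00763, adjusted p = 0.947; two-sided exact permutation p = 0.00794, the smallest that 5 against 5 can give). Cnr1, the cannabinoid receptor through which group I receptors can depress release, had 0.12 ± 0.06 and Trpc5 had 0.07 ± 0.04, with overlap. FCROS called Trpc4 and Cnr1 higher.

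Gi/o and adenylyl cyclase signalling had 26 measured genes, 16 higher and 10 lower, with a median of 0.00480. Gnao1, the main Go alpha subunit of brain, averaged 12.69 ± 0.02 in Tg(Dyrk1a) and 12.67 ± 0.03 in wild type. The smallest p-values were those of Gnb4 (log2 fold change 0.11 ± 0.05), Gng2 (0.07 ± 0.03) and Adcy2 (0.08 ± 0.04), a pair of G protein subunits and an adenylyl cyclase, and none passed the limma test (adjusted p = 0.947 each). Of the 13 genes for desensitisation and RGS proteins, 7 were higher and 6 lower (median 0.0122). Arrb2, an arrestin that uncouples receptors, had a log2 fold change of 0.10 ± 0.05, Grk3, a receptor kinase, of -0.09 ± 0.07, and Rgs14 of 0.08 ± 0.06.

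For the supply and clearance of glutamate and NAAG, 12 of 19 genes were higher and 7 lower (median 0.0111). Slc17a8, a vesicular glutamate transporter found in certain interneurons, had the smallest p of all these lists, with a log2 fold change of 0.20 ± 0.03 and no overlap (unadjusted limma p = 7.1e-05, adjusted p = 0.254; two-sided exact permutation p = 0.00794). Slc1a2, the main glutamate transporter of astrocytes, averaged 12.60 ± 0.03 in Tg(Dyrk1a) and 12.63 ± 0.04 in wild type. Folh1, an enzyme that splits NAAG, averaged 7.49 ± 0.05 in Tg(Dyrk1a) and 7.45 ± 0.13 in wild type. Slc38a3 (0.14 ± 0.08) and Naalad2 (0.06 ± 0.03) did not pass the limma test (adjusted p = 0.947 each).

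In the retinal cascade of Grm6, 4 of 11 genes were higher and 7 lower (median -0.0322). Rgs9bp, an anchor of RGS proteins in the retina, read 6.74, 6.60, 6.70, 6.57 and 6.58 in Tg(Dyrk1a), against 6.75, 6.89, 6.79, 6.73 and 6.73 in wild type. Only the highest Tg(Dyrk1a) mouse reached into the wild type range. Its log2 fold change was -0.14 ± 0.04 (unadjusted limma p = 0.00743, adjusted p = 0.947; two-sided exact permutation p = 0.0238). Pcp2 (-0.13 ± 0.06) and Nyx (-0.08 ± 0.05) overlapped more widely. The highest log2 fold change of this list was 0.13. FCROS called 1 of its 11 genes higher and 2 lower, against 2.72% and 2.11% of transcript clusters.

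Effectors of receptor-dependent long-term depression split evenly, 8 higher and 8 lower of 16 (median 0.000955). Arc, an activity-induced gene needed for the removal of AMPA receptors, read 9.65, 9.52, 9.82, 9.92 and 9.58 in Tg(Dyrk1a), against 9.93, 9.71, 9.96, 10.15 and 9.89 in wild type. The groups overlapped, with all 5 Tg(Dyrk1a) mice below the wild type mean. The log2 fold change was -0.23 ± 0.09 (unadjusted limma p = 0.0194, adjusted p = 0.947; two-sided exact permutation p = 0.0556). Mknk1, a kinase of the translation factor eIF4E, had a log2 fold change of 0.14 ± 0.03 with no overlap (limma adjusted p = 0.792). Camk2b had 0.03 ± 0.03.

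**Figure D5:**
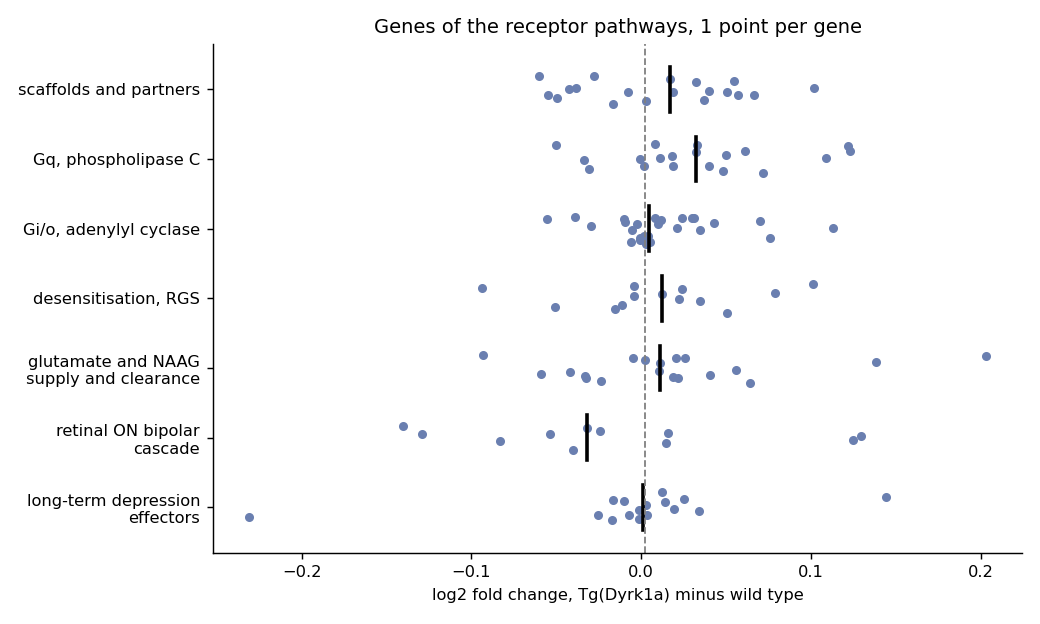
Differences in log2 value, Tg(Dyrk1a) less wild type, of the 123 measured genes of the 7 pathway lists, 1 point per gene, with vertical bars at each list's median and a dashed line at the median of all genes, 0.00199. The list medians lie between -0.0322 and 0.0325.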

How the data were processed

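RNA from the hippocampi of 5 Tg(Dyrk1a) and 5 wild type mice was measured with 1 array each. The authors deposited log2 values after RMA, which subtracts background, equalises the arrays and summarises probes. RMA compresses fold changes, most of all for dim probes. The submitters' processing notes name RMA, limma and mm10; the sources used here do not state which arrays shared a normalisation. The number of arrays limits the precision.

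The table held 35556 rows, of which 23410 were annotated, 1621 of them with several symbols; 12146 without annotation were tested only as an alternative. Of several transcript clusters of a gene the one of highest mean was used, and gene positions and promoters came from RefSeq on GRCm38.p6. Tg(Dyrk1a) was compared with wild type in limma 3.58.1 (R 4.3.3) without covariates, with Benjamini-Hochberg adjustment over 23410 transcript clusters. Permutation tests of means were exact, and those of correlations used 100000 permutations (SciPy 1.17.1), all two-sided. FCROS was rewritten from its description, with 25% of ranks trimmed at each end and f-values under 0.025 or over 0.975 as calls. Arrays are biological replicates by their labels. The p-values of differences set them against the spread between these mice, which limma moderates with that of all transcript clusters. The scripts were tested on simulated data.

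Named were the receptor genes, Dyrk1a, the 3 genes with the smallest p of each pathway list, 5 partners (Homer1, Elfn1, Folh1, Slc1a2 and Gnao1), the first gene of each marker list and the 3 genes most alike to each receptor. The receptor genes and all lists were chosen with earlier results of these data known. Of the listed genes, 12 pathway genes and 3 marker genes were not analysed here. Alternatives were quantile normalisation, median centring, a filter on the dimmest 30%, array weights, a replicate block, tests over all rows, robust estimation with a variance trend, covariates for 3 marker scores (thalamus, meninges and choroid plexus), omission of choroid-rich arrays, the mean over transcript clusters, untrimmed ranks and omission of each array in turn.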

Additional observations from a re-analysis of the deposited data

Results flagged for a closer look

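Grm8 in Tg(Dyrk1a) replicate 3 stood apart from the other 4 Tg(Dyrk1a) arrays, at 7.14 against 6.76 to 6.84. Folh1 in wild type replicate 5 was 7.67, with the other 4 wild type arrays at 7.37 to 7.41. Slc1a2 in wild type replicate 1 was 12.70, with the other 4 at 12.60 to 12.62. Tcf7l2, a gene of thalamus and habenula, was 8.71 in wild type replicate 5 and 7.89 to 8.03 in the other 4. Each was noted because 1 array lay far from the rest of its group. In all, 88 groups of 5 arrays were checked and 4 had such an array, where chance gives about 1 in 20. The causes were not tested.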

How the results depend on the processing

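No receptor gene passed an adjusted limma p of 0.05 in any alternative. Grm4 was lower in Tg(Dyrk1a) in all 20 alternatives, with log2 fold changes of -0.21 to -0.10 and adjusted p-values of 0.738 to 1.00. Grm3 was lower in all 20 too (-0.10 to -0.03). The filter on the dimmest 30%, tests over all rows and the variance trend left each receptor fold change as it was. So did the replicate block and the mean over transcript clusters, so these alternatives could not turn a sign. Grm6 was higher in the 19 alternatives that kept it, from 0.0252 without wild type replicate 5 to 0.117 with the 3 marker scores as covariates. Without Tg(Dyrk1a) replicate 5 it was 0.0377. Grm7 ran between -0.0814 without Tg(Dyrk1a) replicate 4 and -0.0109 without Tg(Dyrk1a) replicate 2 when 1 array was left out, and was -0.0127 without Tg(Dyrk1a) replicate 1, -0.0239 without wild type replicate 1 and -0.0142 with array weights. Leaving out 1 array moved Grm3 and Grm4 to as little as -0.0344 and -0.108. The sign turned for Grm5 with quantile normalisation (-0.00419), for Grm2 without the choroid-rich arrays (-0.0399, with 3 Tg(Dyrk1a) and 4 wild type arrays kept), and, with the 3 marker scores as covariates, for Grm7 (0.00388) and Grm8 (-0.149). Leaving out 1 array at a time gave -0.0456 to 0.0670 for Grm8, turned without Tg(Dyrk1a) replicate 3 (-0.0456) or wild type replicate 2 (-0.0141). It gave -0.00820 to 0.0224 for Grm5, turned without wild type replicate 3, and -0.00382 to 0.0992 for Grm2, turned without wild type replicate 5. Transcript clusters past the limma threshold numbered 2, and 1 with all rows tested, with the variance trend, with the replicate block or without the choroid-rich arrays, 5 with array weights, 0 with the covariates, and 1 to 2 when 1 array was left out. With the covariates Dyrk1a had 0.45 (adjusted p = 0.519). FCROS called 0 receptor genes without the choroid-rich arrays (Grm4 f-value 0.0499), against 1. The list medians kept their sign in all 19 alternatives for 2 of 7 lists, Gq signalling (0.0139 to 0.0365) and glutamate and NAAG supply (0.000900 to 0.0337). Tests over all rows, the variance trend and the replicate block could not move any list median. With the covariates the medians were -0.0314 for Gi/o signalling, -0.0127 for the long-term depression effectors, -0.0115 for the scaffolds, 0.0132 for the retinal cascade and -0.00336 for desensitisation, all of the opposite sign to the main ones. The desensitisation list also turned without wild type replicate 3 (-0.0164) and after quantile normalisation (-0.00399), the Gi/o list in 3 more alternatives and the effectors in 9 more; leaving out 1 array gave a median of -0.0140 to 0.00822 for these effectors, lowest without wild type replicate 3. Whether the replicate numbers pair the mice is not given by the labels. Deviations of same-numbered arrays correlated between -0.285 and 0.276, and 1 of 5 Tg(Dyrk1a) arrays was closest to its own number. So few arrays cannot settle whether mice were paired. The replicate block changed the call of no receptor gene. The causes were not tested. With 5 mice a group, the intervals for Grm4 and Grm8 reach from -0.34 to -0.003 and from -0.15 to 0.19, and differences within such a span could not be resolved.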

Other observations

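The marker lists of other cell types gave the following values, with 0 of 92 measured markers past the limma test, 14 higher and 2 lower at an unadjusted p of 0.05, and 22 higher and 3 lower by FCROS. Over all transcript clusters 2.99% were higher and 1.94% lower at that p, and 2.72% higher and 2.11% lower by FCROS. The marker lists too were chosen with earlier results of these data known, so their counts are no test of an excess. All 10 meninges and fibroblast markers were higher in Tg(Dyrk1a) (median log2 fold change 0.225), led by Slc6a13, a transporter of the meninges, at 8.16 ± 0.22 in Tg(Dyrk1a) and 7.82 ± 0.16 in wild type. All 9 thalamus and habenula markers were lower (median -0.127), with Tcf7l2 at 7.86 ± 0.10 in Tg(Dyrk1a) and 8.10 ± 0.35 in wild type, where wild type replicate 5 is the highest. The score of this list was 0.476 in that array and -0.119 to 0.0356 in the other wild type arrays. These covered the Tg(Dyrk1a) range of -0.114 to -0.0386. Endothelial and mural cell markers were higher in 7 of 8 (median 0.114), and Cldn5, a tight junction gene, averaged 10.32 ± 0.09 in Tg(Dyrk1a) and 10.19 ± 0.16 in wild type. GABAergic interneuron markers were higher in 9 of 10 (median 0.0741), with Gad1 at 11.01 ± 0.04 in Tg(Dyrk1a) and 10.98 ± 0.06 in wild type. CA1 to CA3 pyramidal cell markers were higher in 8 of 10 (median 0.0367), with Wfs1 at 10.61 ± 0.16 in Tg(Dyrk1a) and 10.56 ± 0.16 in wild type. Choroid plexus markers were higher in 8 of 10 (median 0.101), while Ttr, a carrier protein it secretes, spanned 7.97 to 13.19 in Tg(Dyrk1a) and 9.49 to 13.24 in wild type. The medians of the lists for astrocytes (0.0118, with Aqp4 at 10.20 ± 0.05 in Tg(Dyrk1a) and 10.17 ± 0.06 in wild type), oligodendrocytes (0.0165) and microglia (0.0141) lay nearer to that of all genes, 0.00199. Mbp, a myelin gene, averaged 12.39 in both genotypes, and Cx3cr1, a microglial receptor, had a log2 fold change of -0.03 ± 0.04.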
